A study of Homo sapiens with 6 samples.

Results

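The TGF-β receptors and SMADs examined here were 8 genes, TGFBR1, TGFBR2, BMPR2, SMAD2, SMAD3, SMAD4, SMAD5 and SMAD7, of 20046 protein-coding genes in GENCODE release 44. Their data were the IGF2BP3 crosslinking clusters that shared 1 nt or more with one of their exons, strand matched. Of the 244645 clusters of all libraries, 524 did so, and 7 of the 8 genes had at least 1. The clusters came from IR-PAR-CLIP, in which a protein is crosslinked to RNA that carries 4-thiouridine, the RNA is trimmed with an RNase and bound fragments are sequenced. Sequencing reads C at a 4-thiouridine that was crosslinked, so T-to-C conversions mark contacts with the protein.

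The cells were HCT116, a human colorectal carcinoma line, here with an inducible OsTIR1 transgene (Tet-OsTIR1) in all libraries. All of them were fed 100 µM 4-thiouridine for 15 h before UV crosslinking. IGF2BP3, an RNA-binding protein that regulates the stability and translation of mRNAs, was precipitated in 5 libraries, and a control IgG was used in 1. In the names of the libraries the RNase concentration in the lysate stands before the slash and that on the beads after it, in U/µL. The IGF2BP3 libraries were RNase I 0.05/0.05, RNase I 0.1/0.025, RNase I 0.05/0.025, RNase T1 1/1 and RNase T1 0.25/0.25, and the IgG library was RNase I 0.1/0.025. Each condition had 1 library, so no test between conditions was possible and the 95% intervals below cover counting error only. Electroelution from the gel was used for RNase I 0.05/0.05 and RNase T1 1/1 and crushed gel for the other IGF2BP3 libraries, so where a library of one kind is compared with one of the other, effects of RNase concentration and of extraction cannot be told apart. The antibody also recognizes IGF2BP2 to some extent.

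Signals of the TGF-β family begin when a ligand brings together type II receptors, such as TGFBR2 and BMPR2, and type I receptors, such as TGFBR1, which are all serine/threonine kinases. Type I receptors phosphorylate the receptor-regulated SMADs, which are SMAD2 and SMAD3 for TGF-β and activin and SMAD5 for bone morphogenetic proteins. These join SMAD4 and enter the nucleus, and SMAD7 inhibits the pathway. In the colon the pathway restrains epithelial growth, and HCT116, a mismatch repair-deficient line, is known for frameshift mutations of TGFBR2.

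The clusters held between 182448 and 2362467 reads in the IGF2BP3 libraries and 324 reads in 25 clusters in the IgG library. These sums count reads in called clusters and are not sequencing depth. Levels are given as CPM, the usual counts-per-million scale taken over the cluster reads of the library. The depth of calling still differed, since 10 CPM corresponded to 23.6 reads with RNase I 0.05/0.05 but to 1.82 reads with RNase T1 0.25/0.25. Of the epithelial markers EPCAM, KRT8, KRT18, KRT19, CDH1 and CLDN4, 6 of 6 had a cluster in some IGF2BP3 library, and of PTPRC, CD3E, PECAM1, COL1A1 and DES, which mark other cell types, 0 of 5 did.

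Nucleotides under clusters of the most libraries are printed here for the genes with clusters. They mark where called clusters overlapped, not which bases were crosslinked. Reads of a stretch are those of the whole clusters over it, so neighboring stretches can share them. Of the stretches of at least 15 nt under clusters of the largest number of IGF2BP3 libraries, the one with the most reads is given for TGFBR1, BMPR2, SMAD3 and SMAD4. For TGFBR2, SMAD2 and SMAD5, which had such stretches in all 5 libraries, the one with the most reads is given for each of 2 separate sites. They are written 5′ to 3′ on the RNA strand, with T for U as in the clusters, at most 30 nt from the middle of each stretch. Capitals mark the tetramers CATT or CATA or CATC, which hold the CA core to which KH domains of the IGF2BP family are known to bind, and CAGT.
TGFBR2 site 1: atttcaactacacaatactatCATTgtcag
TGFBR2 site 2: acttttttcactactata
BMPR2: acagggcaCATAttcttcCATAatataaac
TGFBR1: tcttcttaCATTaagttgaaactagcttat
SMAD2 site 1: tcttttCATAaattttCATAtttttgaag
SMAD2 site 2: tctcactaaCATAtctccttcctcaacctt
SMAD3: tctattatcaCATTaatctcaaagagattc
SMAD5 site 1: attatcttctctctta
SMAD5 site 2: taccttttttgtattaacaaacactg
SMAD4: gaggaatttcttttccttCATTCATAggga

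In GRCh38 these lay at chr3:30692703-30692732 and chr3:30693902-30693919 (TGFBR2, plus strand), chr2:202560505-202560534 (BMPR2, plus), chr9:99150821-99150850 (TGFBR1, plus), chr18:47840254-47840282 and chr18:47839594-47839623 (SMAD2, minus), chr15:67191304-67191333 (SMAD3, plus), chr5:136181773-136181788 and chr5:136178417-136178442 (SMAD5, plus) and chr18:51079279-51079308 (SMAD4, plus). All 10 were in the 3′UTR of the canonical transcript. The stretches of TGFBR2, SMAD2 and SMAD5 were under clusters of all 5 IGF2BP3 libraries, those of BMPR2 and SMAD4 of 4 and those of TGFBR1 and SMAD3 of 3. The stretches printed for TGFBR2 site 2 and both sites of SMAD5 held none of the tetramers, and T made up 50.0%, 56.2% and 42.3% of them. This holds for the printed bases and not for the whole sites. Near SMAD5 site 1, in the same joined site, the stretch chr5:136181857-136181882 held CATC and chr5:136181830-136181850 held none. Both were under clusters of all 5 libraries. The sequences of all 524 clusters matched GRCh38 exactly.

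Target genes were those with 1 or more clusters that exceeded both 10 CPM and 0.5 conversion events per read. TGFBR2, SMAD2 and SMAD5 met both in all 5 IGF2BP3 libraries, and SMAD7 had no cluster in any. The other 4 genes met them in some libraries only. Of the 8 genes, 7, 5 and 6 were targets in the RNase I 0.05/0.05, 0.1/0.025 and 0.05/0.025 libraries, and 6 and 4 in the RNase T1 1/1 and 0.25/0.25 libraries. The number with a cluster was 7 in each of the first 4 libraries and 5 in the last. Over all protein-coding genes, 43.7%, 32.0%, 30.3%, 37.6% and 16.7% had a cluster in these libraries, in the same order. Of those genes with a cluster, 50.1%, 66.5%, 72.6%, 52.2% and 82.0% were targets. With RNase T1 0.25/0.25 the smallest cluster had 2 reads, above the 1.82 reads of 10 CPM. Every cluster of that library thus met the CPM criterion, and its target calls rest on conversion events alone. A cluster in all 5 IGF2BP3 libraries was held by 5 of the 7 genes that had any cluster, against 33.8% of the 9353 protein-coding genes with a cluster in any of them, and 3 of the 7 were targets in all 5, against 21.2%. In the IgG library 0.0449% of the protein-coding genes had a cluster and none of these 8 did, at a total of 324 cluster reads.

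**Figure D1:**
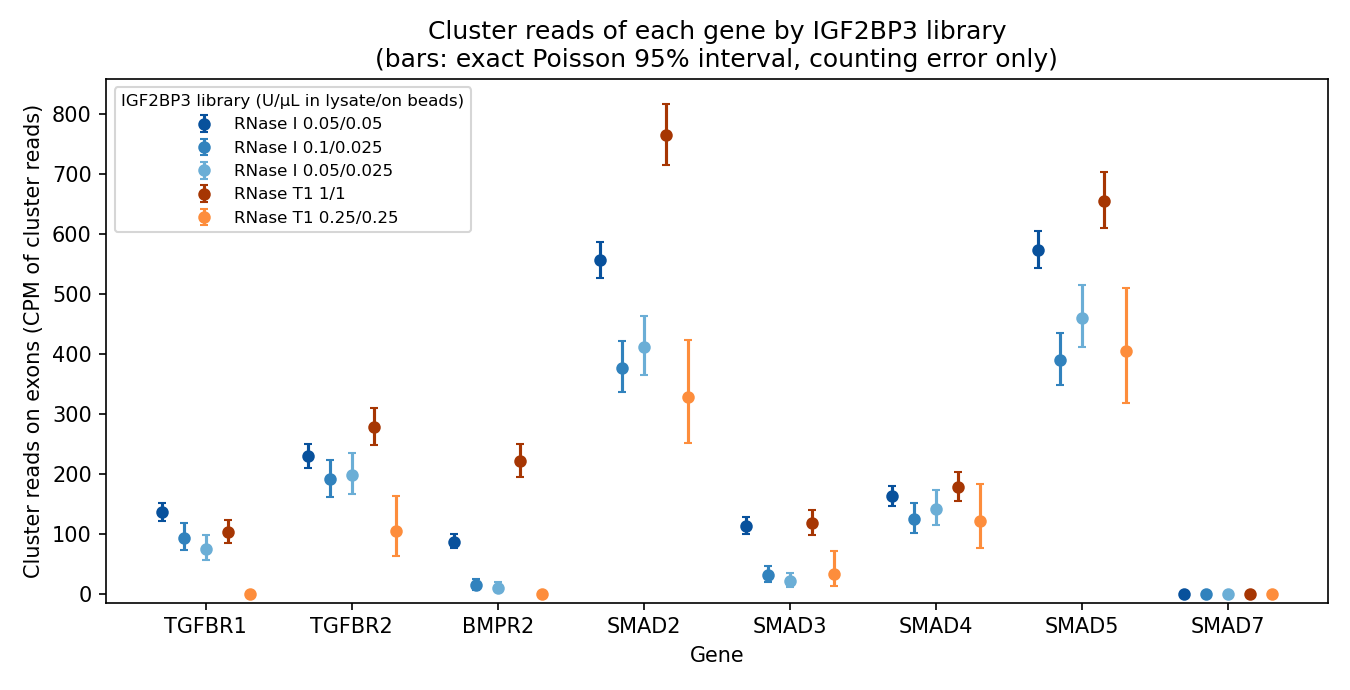
Reads of exon clusters in CPM (linear axis) for each of the 8 genes in the 5 IGF2BP3 libraries, where points are single libraries and bars exact Poisson 95% intervals, drawn only where a cluster was called. SMAD2 and SMAD5 were above the other 6 genes in every library, and SMAD7 was at 0.

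TGFBR2, the type II receptor that binds TGF-β, had 541, 153 and 133 reads in the RNase I 0.05/0.05, 0.1/0.025 and 0.05/0.025 libraries and 321 and 19 in the RNase T1 1/1 and 0.25/0.25 libraries. In CPM these were 229 (95% interval 210 to 249), 190 (161 to 223), 198 (166 to 235), 277 (248 to 309) and 104 (62.7 to 163). The 3 RNase I libraries were close to each other, RNase T1 1/1 was the highest and RNase T1 0.25/0.25 the lowest. The gene was at the 89.0th percentile of protein-coding genes with a cluster with RNase I 0.05/0.05 and at the 52.5th with RNase T1 0.25/0.25. Most of its reads came from a pair of regions of the 3′UTR, which is 2543 nt long. The first ran from 889 to 1530 nt past the stop codon and held 290, 83, 84, 167 and 9 reads in the same order of libraries. The second ran from 2228 to 2450 nt and held 82, 28, 23, 122 and 10 reads. With RNase I 0.05/0.05, 57.9% of the 3′UTR was under clusters, the 82.3th percentile of genes with a 3′UTR cluster. The coding sequence had 2 clusters with RNase I 0.05/0.05, in exons 3 and 4, with 18 reads together, and 1 of 5 reads with RNase T1 1/1.

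BMPR2, the type II receptor for bone morphogenetic proteins, had 205, 11, 6, 256 and 0 reads in the same order, in 20, 2, 1, 20 and 0 clusters. The levels were 86.8 CPM (75.3 to 99.5) with RNase I 0.05/0.05 and 221 CPM (195 to 250) with RNase T1 1/1, but 13.7 CPM (6.83 to 24.5) and 8.95 CPM (3.28 to 19.5) in the other RNase I libraries. Its reads were thus almost all in the electroeluted libraries. It was a target in those 2 libraries and in no other. The gene stood at the 86.7th percentile of protein-coding genes with RNase T1 1/1 and at the 13.5th with RNase I 0.05/0.025. Its clusters lay along the 3′UTR of 7803 nt from 507 to 5354 nt past the stop codon with RNase I 0.05/0.05 and from 559 to 6349 nt with RNase T1 1/1. The region from 507 to 710 nt was the one site found in 4 libraries, with 41, 4, 6 and 65 reads and none with RNase T1 0.25/0.25. Coding clusters with RNase I 0.05/0.05 numbered 6 with 52 reads, 5 of them in exon 12, and both coding clusters of RNase T1 1/1, with 23 reads, were also in exon 12.

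TGFBR1, the type I receptor for TGF-β, had 322, 75, 50, 118 and 0 reads. The levels were 136 CPM (122 to 152), 93.3 (73.4 to 117), 74.5 (55.3 to 98.3) and 102 (84.4 to 122) in the first 4 libraries. RNase I 0.05/0.05 was the highest, and the intervals of the other 3 libraries overlapped. The gene was a target in the 3 RNase I libraries and not with RNase T1 1/1, where its 2 clusters above 10 CPM had 0.409 and 0.450 conversion events per read. The region from 1390 to 1713 nt past the stop codon had 99, 16, 34 and 13 reads. With RNase T1 1/1 the region from 441 to 661 nt had more, 38 reads. With RNase I 0.05/0.05, 28.8% of its 3′UTR of 4887 nt was under clusters, and with RNase T1 1/1 8.90%.

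SMAD2, which carries TGF-β and activin signals, had 1315, 303, 276, 886 and 60 reads in 51, 19, 20, 47 and 7 clusters. The levels were 557 CPM (527 to 588), 377 (336 to 422), 412 (364 to 463), 766 (716 to 818) and 329 (251 to 423). The electroeluted libraries were again above the others of their enzyme, and it ranked 126 of 7544 protein-coding genes with RNase T1 1/1. The annotated 3′UTR of the canonical transcript is 32870 nt long. Between 93.9% and 100% of the 3′UTR reads, by library, lay in the first of 5 equal parts. In nt the clusters were spread, with a site as far as 8640 nt past the stop codon in the 3 RNase I libraries. Beyond 10000 nt from the stop codon there were 21 reads with RNase I 0.05/0.05, 33 with RNase T1 1/1 and none in the other libraries. The share of the 3′UTR under clusters, 9.84% with RNase I 0.05/0.05, was therefore low for a gene with so many reads. Per length the gene fell back as well, to 16.1 CPM per kb of transcript in that library, at the 61.4th percentile against the 97.2th for CPM. Both values divide by the annotated length, of which the part beyond 10000 nt held few or no reads. They would be higher over a shorter 3′UTR, and which length the cells use was not tested.

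The strongest site of SMAD2 ran from 1332 to 1688 nt past the stop codon and had 237, 83, 83, 180 and 24 reads. A region across the stop codon, up to 205 nt past it, had 156, 60, 51, 37 and 0 reads, and in the 3 RNase I libraries a single cluster spanned the codon. In the coding sequence SMAD2 had 238, 32, 35, 93 and 5 reads. SMAD5 had 188, 44, 29, 27 and 12 there, more than SMAD2 with RNase I 0.1/0.025 and RNase T1 0.25/0.25. Sites of SMAD2 in exon 8 had 120, 21, 27, 13 and 0 reads and in exon 5 60, 11, 8, 37 and 0 reads, so both were under clusters of 4 libraries and both enzymes.

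SMAD3, the other SMAD for TGF-β and activin, had 267, 25, 14, 136 and 6 reads. The levels were 113 CPM (99.9 to 127), 31.1 (20.1 to 45.9), 20.9 (11.4 to 35.0), 118 (98.6 to 139) and 32.9 (12.1 to 71.6). As with BMPR2, the electroeluted libraries were above the others of the same enzyme, with intervals that did not overlap. SMAD3 had fewer reads than SMAD2 in every library. Per kb of transcript, which is much longer for SMAD2, SMAD3 was slightly higher with RNase I 0.05/0.05, at 17.5 CPM per kb against 16.1, and lower in the other 4 libraries. With RNase I 0.1/0.025 it was not a target, since its largest cluster reached 9.96 CPM. In its 3′UTR of 4633 nt the site between 853 and 986 nt past the stop codon had 49, 6, 14, 27 and 0 reads, and the site between 609 and 838 nt, which holds the stretch printed above, had 49, 0, 0, 30 and 6. No site led in all libraries.

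SMAD5, which carries signals of bone morphogenetic proteins, had 1356, 313, 309, 759 and 74 reads in 38, 27, 19, 39 and 10 clusters. The levels were 574 CPM (544 to 605), 390 (348 to 435), 461 (411 to 515), 656 (610 to 704) and 406 (318 to 509). Its mean over the libraries, 497 CPM, was the highest of the 8 genes and that of SMAD2, 488 CPM, was next. Per kb of transcript it was well above the rest, at 81.8 CPM per kb with RNase I 0.05/0.05 against 50.6 for TGFBR2 and 16.1 for SMAD2. The value for SMAD2 depends on its long annotated 3′UTR. Clusters lay along the whole 3′UTR of 5253 nt, and with RNase I 0.05/0.05 60.1% of it was covered, the most of the 8 genes. A site from 4008 to 4623 nt past the stop codon had 267, 59, 104, 178 and 37 reads, and one from 577 to 1173 nt had 292, 80, 92, 126 and 7. The first had more reads in both RNase T1 libraries and RNase I 0.05/0.025, the second in the other RNase I libraries. A cluster spanned the stop codon in 4 libraries, and exons 3 to 8 all held coding clusters in some library.

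SMAD4, the partner common to both branches, had 384, 100, 95, 205 and 22 reads. The levels were 163 CPM (147 to 180), 124 (101 to 151), 142 (115 to 173), 177 (154 to 203) and 121 (75.6 to 183). The libraries lay close together, and every interval overlapped that of at least 3 others. It was a target in 4 libraries and missed the criteria with RNase T1 0.25/0.25, where both of its clusters had exactly 0.5 conversion events per read. The reads of its 3′UTR of 6575 nt were concentrated at the start, with 72.3% to 100% in the first of 5 equal parts by library, and the site that reached across the stop codon to 429 nt past it was under clusters of all 5 libraries, with 120, 41, 22, 31 and 12 reads. In exons 2, 3 and 5, 8 clusters of SMAD4 also overlapped an unnamed protein-coding readthrough gene on the same strand, and their reads cannot be told apart between the genes.

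SMAD7, the inhibitor, had no cluster in any library. Its 3′UTR of 1519 nt is the shortest of the 8. Only called clusters were examined, so RNA of SMAD7 below the calling limit, or not expressed, cannot be told apart from RNA that was not bound.

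**Figure D2:**
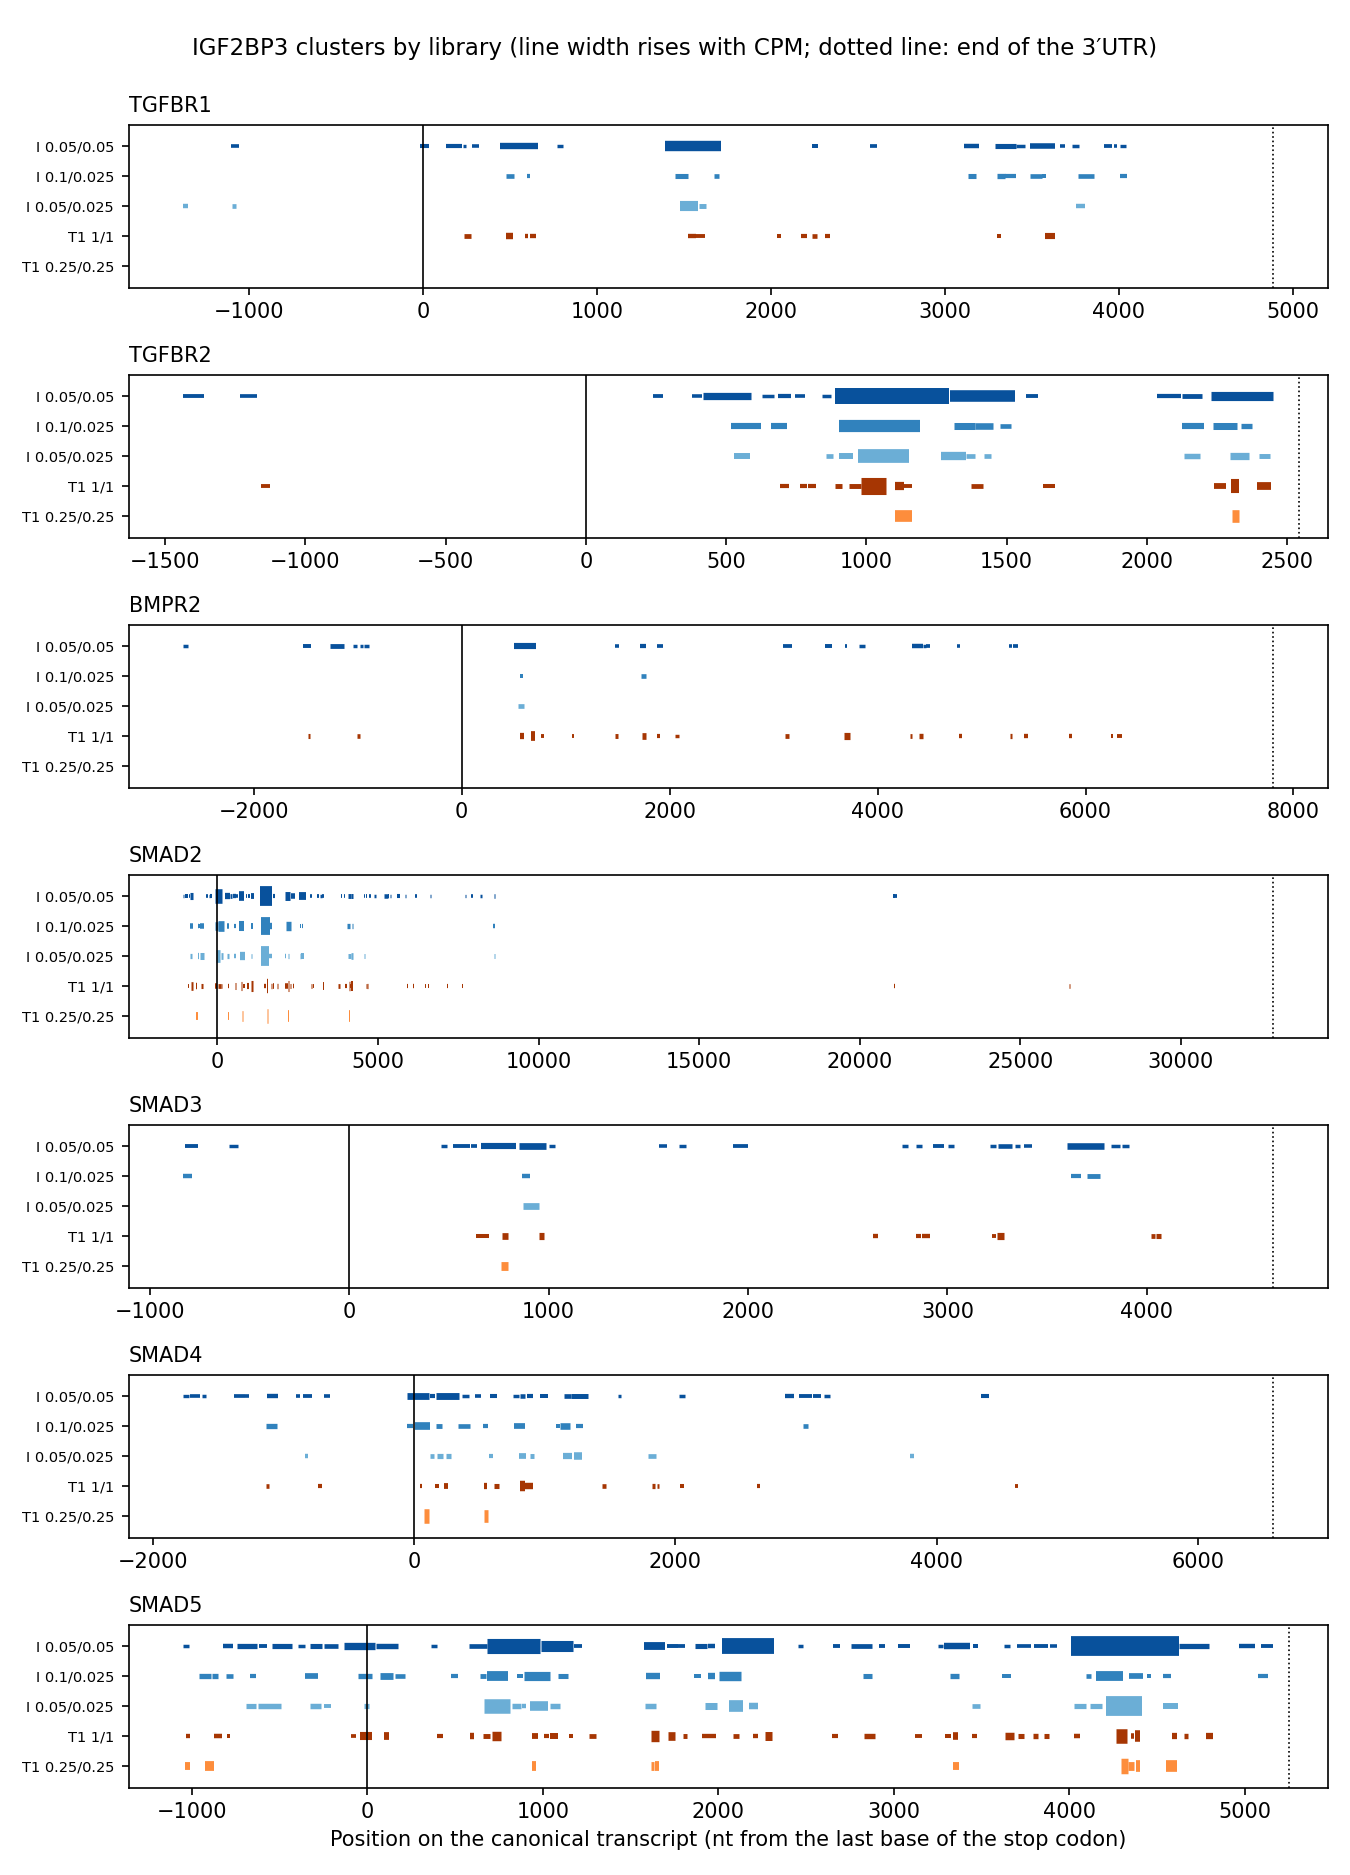
Clusters of the 7 genes with any cluster, by distance in nt from the last base of the stop codon (line at 0) on the canonical transcript, 1 row per IGF2BP3 library, with line width rising with CPM and the dotted line at the end of the 3′UTR. Relative to the length of the 3′UTR, the clusters of SMAD2 and SMAD4 lay mostly in its first part, whereas those of SMAD5 and BMPR2 were spread along it. The annotated 3′UTR of SMAD2 is 32870 nt long, and in nt its clusters were spread as well. Not drawn are 5 coding clusters that run past an exon end.

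Differences between libraries were compared as ratios of CPM, beside the same ratio for all protein-coding genes with at least 10 reads in the pair together and reads in each. RNase T1 1/1 over RNase I 0.05/0.05, both electroeluted, was 2.55 for BMPR2 (exact 95% interval 2.11 to 3.08), at the 89.0th percentile of 7092 genes with a median of 1.03. SMAD2 followed with 1.38, an interval above 1, TGFBR2 with 1.21 (1.05 to 1.39) and SMAD5 with 1.14 (1.04 to 1.25). TGFBR1 was lower with RNase T1 1/1, at 0.748 (0.601 to 0.927), and for SMAD3 and SMAD4 the interval held 1. These ratios were not all repeated in crushed gel, where RNase T1 0.25/0.25 over RNase I 0.1/0.025 was 0.547 for TGFBR2 (0.320 to 0.884). There the interval held 1 for SMAD2 at 0.872, SMAD3 at 1.06, SMAD4 at 0.969 and SMAD5 at 1.04. TGFBR1 and BMPR2 had 0 reads with RNase T1 0.25/0.25 against 75 and 11. RNase T1 0.25/0.25 over RNase I 0.05/0.025 was 0.525 for TGFBR2 (0.307 to 0.853). RNase I 0.05/0.05 over RNase I 0.05/0.025, which differ on beads and in gel extraction, was 9.70 for BMPR2 (4.38 to 26.7) and 5.41 for SMAD3 (3.17 to 10.0), at the 99.5th and 97.4th percentiles of 5964 genes with a median of 1.14. For TGFBR2 the same ratio was 1.15 (0.954 to 1.41). Between the 2 crushed-gel RNase I libraries, RNase I 0.1/0.025 over RNase I 0.05/0.025 was 1.53 for BMPR2 (0.519 to 5.04) and 1.49 for SMAD3 (0.746 to 3.10), both intervals holding 1.

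The libraries of each pair also differed in depth. RNase T1 1/1 had fewer cluster reads than RNase I 0.05/0.05, 1157194 against 2362467, and these libraries differ in enzyme as well. The RNase I 0.05/0.025 library had 0.284 times the cluster reads of RNase I 0.05/0.05, and the median BMPR2 cluster of the latter had 8 reads. Scaled to the smaller library, 3 of its 20 BMPR2 clusters would still have 5 or more reads, and 1 was called. For SMAD3 the same was 4 of 22 clusters, with 1 called, and for SMAD4 5 of 29, with 12 called. At the depth of RNase T1 0.25/0.25, 0 of the 12 RNase T1 1/1 clusters of TGFBR1 and 1 of the 20 of BMPR2 would have 5 reads, and neither gene had a cluster there. For SMAD3 it was 0 of 10, and 1 was called. Clusters under 5 reads were called too, and made up 6.48% of RNase I 0.05/0.025 and 3.44% of RNase T1 0.25/0.25. The part of depth in the ratios was not tested.

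**Figure D3:**
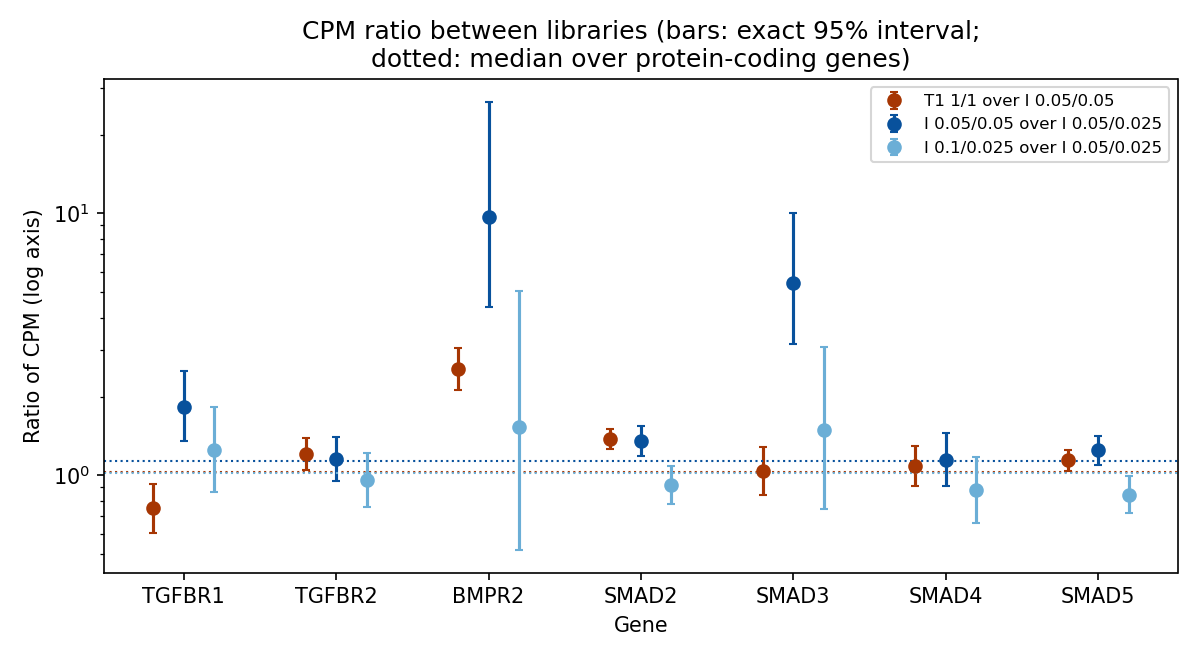
Ratio of CPM between pairs of libraries on a log axis for the 7 genes with clusters, with exact 95% intervals for counting error and dotted lines at the median of all protein-coding genes in the same color. BMPR2 lay above the median in all 3 pairs, at 2.55, 9.70 and 1.53, and so did SMAD3, at 1.04, 5.41 and 1.49. The intervals at 1.53, 1.04 and 1.49 held the median.

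Conversion was lower in the RNase T1 1/1 library for each of the 7 genes than in RNase I 0.05/0.05. Over the 8 genes it was 0.646, 0.681, 0.634, 0.516 and 0.580 conversion events per read in the order RNase I 0.05/0.05, 0.1/0.025, 0.05/0.025, RNase T1 1/1 and 0.25/0.25. Over all clusters of these libraries it was 0.633, 0.644, 0.600, 0.511 and 0.547, so that the libraries stood in the same order. BMPR2 had 0.688 with RNase I 0.05/0.05 and 0.469 with RNase T1 1/1. SMAD4 had 0.594 and 0.551, the smallest difference of the 7. Clusters were also shorter with RNase T1, at a median of 31 nt with RNase T1 1/1 against 55 nt with RNase I 0.05/0.05 for the 8 genes, and 33 and 54 nt over all clusters.

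**Figure D4:**
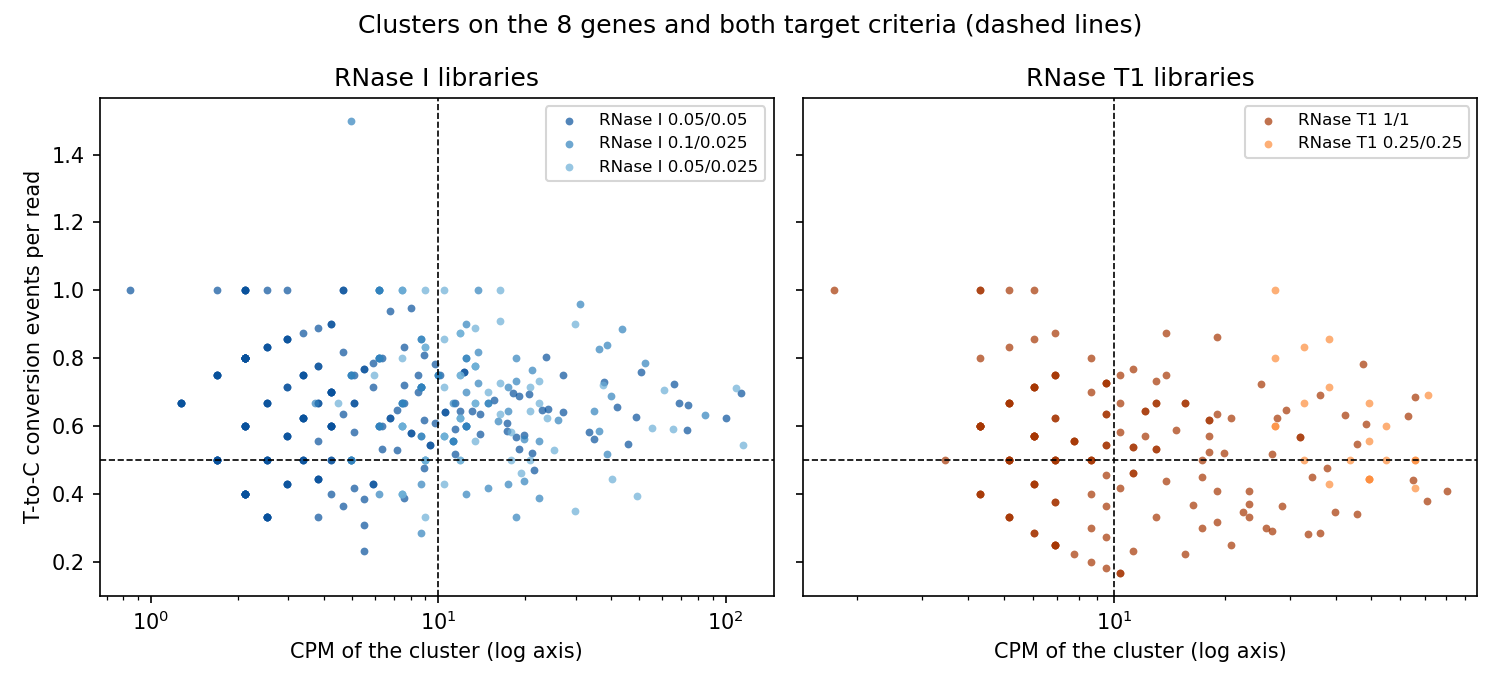
Conversion events per read against CPM (log axis) for each cluster on the 8 genes, RNase I libraries on the left and RNase T1 libraries on the right, with dashed lines at the target criteria of 10 CPM and 0.5 events per read. Clusters past both lines make a gene a target, and 76.3% of the clusters with RNase I 0.05/0.05 but 55.4% of those with RNase T1 1/1 were above 0.5 events per read, against 74.2% and 54.5% over all clusters.

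Most reads of the 8 genes were in clusters that overlapped a 3′UTR. The share was 86.4% (95% Wilson interval 85.4% to 87.4%), 90.6% (88.6% to 92.3%), 90.8% (88.7% to 92.6%), 93.8% (92.9% to 94.7%) and 90.6% (85.5% to 94.1%) in the order of libraries used above. Over all clusters on protein-coding exons it was 86.6%, 88.4%, 87.5%, 91.1% and 92.0%. The genes differed among themselves: with RNase I 0.05/0.05 the share was 100% for TGFBR1, 1 cluster of which lay in the 3′UTR of another transcript only, and 96.7% for TGFBR2 but 74.6% for BMPR2 and 77.6% for SMAD4. A cluster that overlapped both features was counted in the 3′UTR, and in the other order the share with RNase I 0.05/0.05 was 80.0%.

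**Figure D5:**
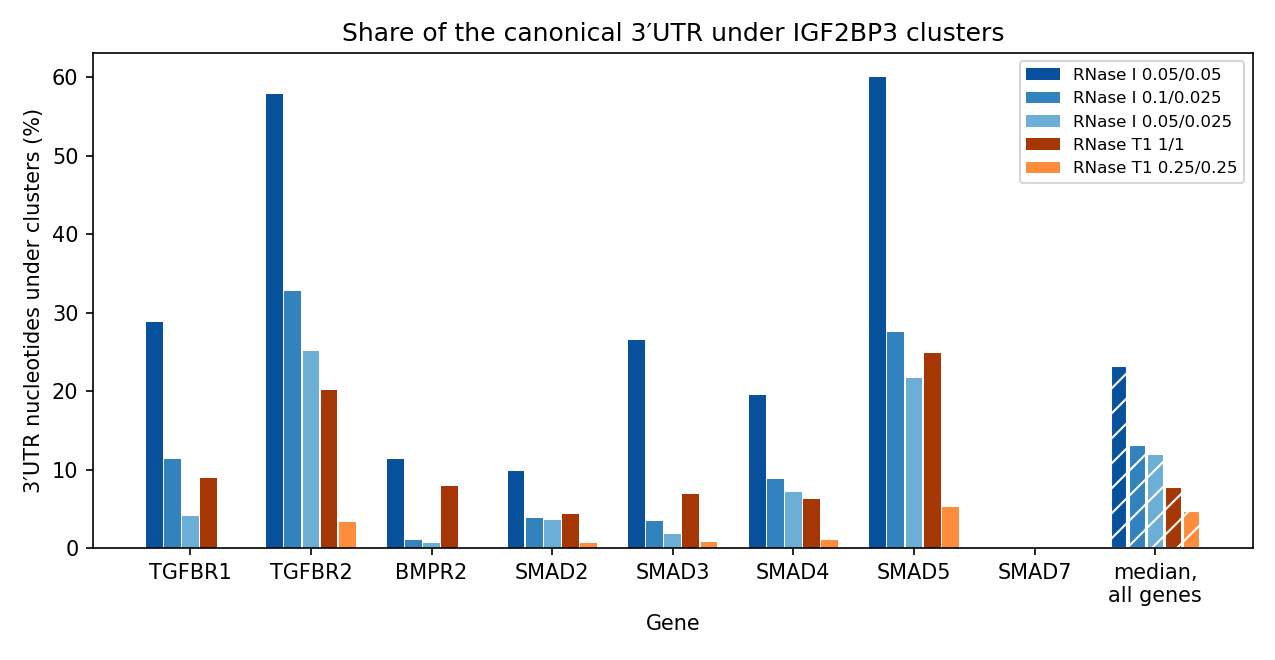
Share of the nucleotides of the canonical 3′UTR under clusters for each gene and IGF2BP3 library, with the median of all genes that had a 3′UTR cluster at the right (hatched). TGFBR2 and SMAD5 were above that median in 4 and 5 libraries respectively, and SMAD2 was below it in all 5.

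Clusters of the 5 IGF2BP3 libraries that overlapped were joined into sites. The 8 genes had 217 sites, of which 75 were found with both enzymes, or 34.6% (28.6% to 41.1%), against 31.7% of the 79860 sites on protein-coding exons. In 1 library only there were 120 sites, or 55.3% against 54.5% over all sites, and 11 were in all 5, or 5.07% against 6.69%. Those 11 lay in SMAD2, with 5, SMAD5, with 3, TGFBR2, with 2, and SMAD4, with 1. SMAD5 had 20 of 37 sites under both enzymes and SMAD3 5 of 24. Counted by nucleotide, 1.97% of the 3′UTR bases under any cluster of the 8 genes were under clusters of all 5 libraries, against 5.21% over all genes with a 3′UTR cluster. Of the 157 RNase T1 1/1 clusters 119 overlapped a cluster of RNase I 0.05/0.05, or 75.8% (68.5% to 81.8%), close to the 76.9% over protein-coding exons. For SMAD5 it was 36 of 39 and for BMPR2 13 of 20. In the other direction 85 of 194 RNase I 0.05/0.05 clusters overlapped one of RNase T1 1/1, or 43.8% (37.0% to 50.8%), against 38.1%.

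The 3′UTR clusters of the 8 genes were richer in T than the rest, with 35.2% T against 31.9% over all 3′UTR clusters for RNase I 0.05/0.05 and 39.1% against 35.2% for RNase T1 1/1. C was lower, at 19.8% against 23.6% and 21.6% against 24.0%. CAT followed by A, C or T, searched on the RNA strand of the cluster alone, was found in 110 of 156 clusters with RNase I 0.05/0.05, or 70.5% (62.9% to 77.1%), against 65.3% over all 3′UTR clusters. With RNase T1 1/1 it was in 90 of 143, or 62.9% (54.8% to 70.4%), against 61.0%. CAGT was in 41.7% (34.2% to 49.5%) with RNase I 0.05/0.05, against 35.2%. In the other RNase I libraries the share was close to that of all clusters, at 34.7% against 35.1% with 0.1/0.025 and 36.2% against 34.2% with 0.05/0.025. It was in 8.39% (4.87% to 14.1%) with RNase T1 1/1, against 11.8%. RNase T1 cuts after G, and 133 of the 143 RNase T1 1/1 clusters ended on it. This was 93.0% (87.6% to 96.2%), against 94.9% over all 3′UTR clusters. With RNase I 0.05/0.05 it was 16 of 156, or 10.3%, against 12.9%. The shares depend on cluster length, and the genes with most clusters, SMAD2 and SMAD5, weigh most in them.

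Other genes of the pathway were taken from a list of 51 ligands, receptors, SMADs, regulators, nuclear partners and target genes. A cluster in any IGF2BP3 library was found for 37, against 46.7% of all protein-coding genes, and 9 of the 37 were targets in all 5 libraries, against 21.2% of protein-coding genes with a cluster. Of 10 ligands only GDF15, a stress-induced member of the family, was a target in all 5, with 423, 128, 195, 163 and 121 CPM. TGFB2, TGFB3, BMP2, INHBA and INHBB had no cluster. Of 10 further receptors none was a target in all 5, and BMPR1A, a type I receptor for bone morphogenetic proteins, came closest with 4 libraries. ACVR1C, ACVRL1, BMPR1B and ENG had no cluster. SMAD1, the close relative of SMAD5, was a target in all 5 libraries, with 82.1, 48.5, 64.1, 163 and 137 CPM, below SMAD5 in each. SMAD6, the other inhibitory SMAD, had no cluster, like SMAD7. Among 15 regulators 5 were targets in all 5: the corepressors SKI and TGIF1, the ubiquitin ligase RNF111, the phosphatase PPM1A and FKBP1A, which binds type I receptors. SKI had 488, 579, 486, 424 and 718 CPM. BAMBI and PMEPA1, which both restrain receptor signals, had no cluster. Of 4 nuclear partners the coactivator EP300 was a target in all 5 and FOXH1 had no cluster. Of 9 target genes of the pathway the cell cycle inhibitor CDKN1A was a target in all 5, with 2849 to 6161 CPM, and it also had 6 reads in the IgG library, the one gene of the list with any there. SNAI2 had no cluster.

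The 3 genes whose log2 CPM across the 5 IGF2BP3 libraries lay closest to SMAD5, of 3162 genes with a cluster in all 5, were TFRC, the transferrin receptor, at a Euclidean distance of 0.27, ATP13A3 at 0.28 and SFT2D2 at 0.29. TFRC had 618, 355, 416, 706 and 438 CPM. These likenesses are over 5 libraries without replicates.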

How the data were processed

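IR-PAR-CLIP clusters of IGF2BP3 and IgG libraries from HCT116 cells were used, 1 library per condition. Per the submitters' processing notes, bcl2fastq 2.20.0.422, UMI-tools 1.1.1, Trimmomatic 0.30 and Bowtie 0.12.7 were used. Reads were aligned to GRCh38 and deduplicated, and PARalyzer then defined clusters without pooling libraries. For each cluster the authors gave the count of reads and of events with and without a conversion, with no normalization. The mode score, a fraction given by the authors, was not used. Clusters are listed only where called, so weak binding is not seen. Reads were divided by the cluster reads of the library (CPM), since library sizes were not used here. The target criteria are those of the study's methods on this scale. They gave 4389 protein-coding targets with RNase I 0.05/0.05 and 3939 with RNase T1 1/1. Both counts are above those that the study reports for each enzyme, more so for RNase T1, so calls here are not the published ones. A cluster belonged to a gene (GENCODE release 44) when 1 nt or more lay in one of its exons, strand matched. A cluster over several features was placed in the 3′UTR first, then in coding sequence, then in the 5′UTR. Poisson and conditional binomial intervals are exact, Wilson intervals are used for shares, and all are at 95%. The tools were pysam 0.24.0, pandas 2.3.3, statsmodels 0.14.6, scipy 1.17.1, matplotlib 3.10.9 and numpy 2.4.6 under Python 3.11.15, and gene assignment was tested on simulated data. The genes named were the 8 members, pathway genes that were targets in all 5 IGF2BP3 libraries or had no cluster, and the 3 genes closest in profile to the member with the highest mean CPM. BMPR1A was named after its values were seen. The members and lists were chosen with earlier results of these data known. Alternatives changed the criteria, gene assignment, denominator, feature order, clusters and motif windows. No sequence of a protein was used here.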

Additional observations from a re-analysis of the deposited data

Results flagged for a closer look

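Clusters inside introns of these genes, which no comparison above uses, held reads in IGF2BP3 libraries and none in the IgG library. TGFBR2 had 53 such reads, in 1 cluster near chr3:30678827-30678873 in each of the 3 RNase I libraries, with 24, 18 and 11 reads for 0.05/0.05, 0.1/0.025 and 0.05/0.025. SMAD2 had 72, of which those in the RNase I libraries overlapped the pseudogene MTCO2P2 on the same strand. SMAD5 had 11, in 2 clusters with RNase T1 1/1. With 1 library per condition, no test of single samples against their group was possible.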

How the results depend on the processing

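Of 107 recomputed values 67 stayed within 1.5 times the main count or within its 95% interval. Targets with more than 0.75 conversion events per read numbered 3 in the RNase I 0.05/0.05 library and 2 in each RNase T1 library. At least 20 reads in place of CPM left 3 for RNase I 0.05/0.025 and 0 for RNase T1 0.25/0.25. With conversion events as a share of all events above 0.5, 0 of the 8 genes were targets in each IGF2BP3 library. Summed by gene and library that share was 4.08% to 12.8% where there were clusters. The cut lay far above it, so this setting could not tell genes apart.

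With reads on protein-coding exons as the denominator, the 8 genes together had 2191, 1442, 1581, 2759 and 1189 CPM in the order RNase I 0.05/0.05, 0.1/0.025, 0.05/0.025, RNase T1 1/1 and 0.25/0.25. The 3′UTR share with the coding sequence first was 80.0%, 86.5%, 85.1% and 92.6% in the first 4. The 3′UTR share under clusters of at least 10 reads was 14.6%, 4.69%, 3.41%, 4.72% and 0.307%, and under clusters above 0.5 events per read 16.7%, 6.57%, 4.42%, 4.33% and 0.525%. CAT followed by A, C or T within 30 nt around the mode was in 32.7%, 30.6%, 36.2% and 50.3% of clusters in the first 4 libraries, and CAGT in 19.2%, 18.1% and 17.2% in the RNase I libraries. With clusters extended by 10 nt the first was in 77.6% for RNase I 0.05/0.05, against 72.3%, and 74.1% for RNase T1 1/1, against 68.3%. CAGT was then in 21.0% with RNase T1 1/1, against 24.9%. Sites under both enzymes were 23.1% among clusters above 0.5 events per read, against 23.7% over all genes. The cause of these changes was not tested, except that stricter criteria leave fewer clusters. No paired analysis was possible because each condition had 1 library. Levels in RNase T1 0.25/0.25, the shallowest IGF2BP3 library, are the least precise.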
